A study of Mus musculus with 12 samples.

Results

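The nuclear genes for subunits of the oxidative phosphorylation complexes were followed in sorted mouse muscle progenitors of 4 origins. Members were all gene symbols starting with Nduf and a letter a, b, c, s or v and a digit, Sdha to Sdhd, symbols starting with Uqcr, the Cox4i, Cox5, Cox6, Cox7 and Cox8 symbols, and Atp5 followed by a letter from a to l or a digit. These were 81 of the 23284 symbols of the expression table, with 37 genes in complex I, 4 in complex II, 8 in complex III, 18 in complex IV and 14 in complex V. Of the 81 members, 79 reached 1 FPKM (fragments per kilobase of transcript, normalised to the mapped fragments of the library) in at least 3 libraries and were tested. The other two, the testis isoform genes Cox7b2 and Cox8c, were listed at 0 in all 12 libraries. The symbol rule places Ndufa4 and Ndufa4l2 with complex I, although NDUFA4 protein is known as a complex IV subunit, and it takes in Cox7a2l, known as a supercomplex assembly factor.

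All 12 libraries came from mononuclear cells sorted as CD31- CD45- α7-integrin+ VCAM+, where CD31 marks endothelial cells, CD45 leukocytes, and α7-integrin and VCAM muscle progenitors, and every group carries the strain label 129P2/OlaHsd. The transplant group was sorted from tibialis anterior muscle 1 month after it had received teratoma-derived cells of the same sort, and the teratoma group from 3-week-old teratomas grown from pluripotent stem cells. The adult group was sorted from the hindlimbs of 8-week-old males and the embryo group from whole embryos at E14.5, with 3 libraries in each of the 4 groups. Host strains of the teratomas and grafts are not named, nor do the labels say how donor and host progenitors were separated in the transplanted muscle, and age and body site cannot be told apart between adult and embryo. The labels speak of biological replicates without naming separate animals, so the p-values measure the spread between these libraries. In such bulk samples fewer cells of a type and less RNA per cell cannot be told apart.

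Oxidative phosphorylation passes electrons from NADH through complex I and from succinate through complex II to ubiquinone, then through complex III and cytochrome c to complex IV, where oxygen is reduced. The proton gradient built by complexes I, III and IV drives ATP synthesis in complex V. A small set of core subunits of complexes I, III, IV and V is made inside mitochondria and the rest, like all of complex II, is encoded in the nucleus. Quiescent satellite cells, the stem cells of adult skeletal muscle, are known for few mitochondria and low respiration, and fetal progenitors for growth. The mitochondrially encoded subunits were not analysed here.

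The depth of the libraries is unknown, since FPKM values show no read counts. From 9495 to 12000 genes reached 1 FPKM per library, fewest in the adult libraries, and median-ratio scaling factors computed from the FPKM values ran from 0.816 to 1.329. Genes of the sort were present in every library: Itga7, the α7-integrin gene, was at 34.9, 39.03 and 55.5 FPKM in transplant, 48.2, 43.3 and 40.2 in teratoma, 61.6, 61.8 and 62.5 in adult and 10.6, 9.73 and 10.8 in embryo libraries. Pax7, the transcription factor that marks muscle stem cells, was at 42.3 ± 11.5 FPKM in transplant, 23.1 ± 2.73 in teratoma, 9.11 ± 0.916 in adult and 14.04 ± 0.875 in embryo libraries (mean ± SD, n = 3 each). Of 8 myogenic progenitor genes, Pax7 and Itga7 among them, the sum was 394 to 538 FPKM in transplant and 352 to 431 in teratoma libraries. It was 836 to 994 FPKM in adult and 130.4 to 160.5 in embryo libraries, an order that Pax7 did not share. Isolated 0 values, where both group mates of a library hold 5 FPKM or more, numbered 74 in embryo replicate 2 and between 6 and 27 in each other library; among the members this touched Ndufs5 in embryo replicate 2 and Cox7a1 in teratoma replicate 1.

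Promoters of 65 of the 81 members were found in the RefSeq promoter table, which gives 250 bases before and 50 after each start site on GRCm38.p6, in 70 windows. Of these windows 11.4% held the letters of nuclear respiratory factor 1 (GCGCATGCG), against 1.75% of all 32851 windows and 3.44% of the 11510 windows of tested genes. The YY1 letters AAGATGGC stood in 12.9% of the member windows, 2.75% of all windows and 4.15% of those of tested genes. The letters of the estrogen-related receptors (CAAGGTCA) stood in 5.71%, 1.56% and 0.999% of the same windows. The ETS letters CCGGAAGT, the core of GABPA sites, stood in 7.14%, 3.89% and 7.38%, and the E-box CAGCTG, bound by MYOD1, in 8.57%, 16.3% and 15.6%. Both strands were searched; letters that overlap on the 2 strands, as in the palindrome read in Atp5k, count as 1 window, and a match is not a known site. A few windows are shown because their genes differ most among groups or carry one of each kind of match, with the matched letters in capitals: Ndufs7 (chr10:80249199-80249498, + strand, YY1), Sdhd (chr9:50603800-50604099, - strand, estrogen-related receptor), Uqcr11 (chr10:80406772-80407071, - strand, ETS and then nuclear respiratory factor 1), Atp5k (chr5:108434350-108434649, - strand, nuclear respiratory factor 1 on both strands) and Atp5b (chr10:128083057-128083356, + strand, E-box), all on GRCm38.p6.
Ndufs7: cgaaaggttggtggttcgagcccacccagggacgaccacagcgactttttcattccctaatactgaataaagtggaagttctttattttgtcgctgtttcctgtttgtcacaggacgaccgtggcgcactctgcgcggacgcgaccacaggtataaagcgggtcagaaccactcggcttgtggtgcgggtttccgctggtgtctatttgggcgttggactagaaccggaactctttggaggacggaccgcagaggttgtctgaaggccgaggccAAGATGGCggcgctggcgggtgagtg
Sdhd: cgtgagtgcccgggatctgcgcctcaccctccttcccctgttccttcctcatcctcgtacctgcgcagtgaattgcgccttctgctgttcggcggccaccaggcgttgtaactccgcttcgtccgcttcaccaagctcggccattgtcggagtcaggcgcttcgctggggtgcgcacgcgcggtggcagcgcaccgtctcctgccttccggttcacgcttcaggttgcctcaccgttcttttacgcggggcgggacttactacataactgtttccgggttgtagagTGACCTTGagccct
Uqcr11: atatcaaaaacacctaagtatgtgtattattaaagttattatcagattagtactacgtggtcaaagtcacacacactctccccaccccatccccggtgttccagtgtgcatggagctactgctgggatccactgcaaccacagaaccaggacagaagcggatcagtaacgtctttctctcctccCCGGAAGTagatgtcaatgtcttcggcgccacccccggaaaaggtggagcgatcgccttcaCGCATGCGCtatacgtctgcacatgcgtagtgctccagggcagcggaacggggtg
Atp5k: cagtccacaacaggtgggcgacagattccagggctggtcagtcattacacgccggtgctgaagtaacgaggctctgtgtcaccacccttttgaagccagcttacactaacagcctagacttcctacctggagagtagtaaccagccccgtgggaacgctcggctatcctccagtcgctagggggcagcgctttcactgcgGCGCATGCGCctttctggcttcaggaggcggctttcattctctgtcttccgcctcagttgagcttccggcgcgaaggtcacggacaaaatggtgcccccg
Atp5b: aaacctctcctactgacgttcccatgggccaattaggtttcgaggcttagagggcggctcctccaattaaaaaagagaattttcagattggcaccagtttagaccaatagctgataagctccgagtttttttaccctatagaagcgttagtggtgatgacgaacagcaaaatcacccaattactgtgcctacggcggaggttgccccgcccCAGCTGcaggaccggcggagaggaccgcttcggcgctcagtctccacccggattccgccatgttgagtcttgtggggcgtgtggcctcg

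As a set, the members stood highest in embryo and lowest in adult progenitors. The FPKM of all members summed to 3194, 3539 and 3571 in the transplant libraries, 5074, 5000 and 5268 in the teratoma libraries, 2286, 2490 and 2193 in the adult libraries and 5986, 6253 and 6495 in the embryo libraries. No library of one group overlapped the range of another. With median-ratio scaling, an alternative added after the data were seen, the sums were 3394, 3619 and 3795 in transplant, 3921, 4248 and 4780 in teratoma, 2791, 3052 and 2664 in adult and 5363, 5442 and 4887 in embryo libraries, and the groups still did not overlap. By group mean, 67 of the 79 tested members were lowest in adult and 63 highest in embryo, and 48 followed the full order embryo, teratoma, transplant, adult. The transplant group was lowest for 9 members and highest for 2, and no member was highest in adult. These orders were not counted over all tested genes, which also tended to be lower in adult than embryo libraries (median log2 change -0.42). They are therefore not shown to be particular to the members.

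**Figure D1:**
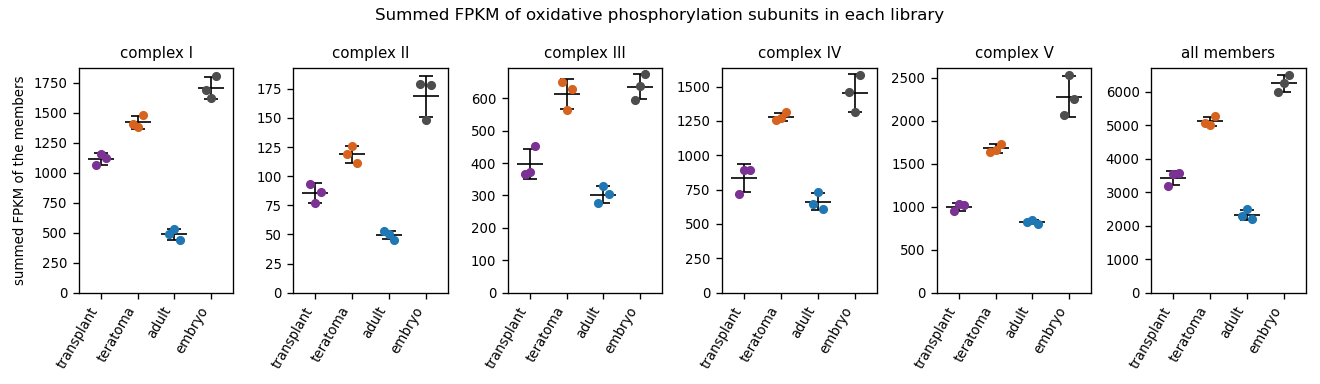
Summed FPKM of the members in each library (y axis) by group (x axis), for complexes I to V and for all members; points are libraries and the black bars the group mean ± SD (n = 3). The adult mean is the lowest and the embryo mean the highest in every panel, and in the complex I panel the transplant libraries, at 1063 to 1159, lie far above the adult ones, at 436 to 533.

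Levels of the members spanned a wide range within each group. The most abundant member on average was Atp5b, the catalytic β subunit of the ATP synthase head, with 130.0 ± 15.8 FPKM in transplant, 245 ± 15.5 in teratoma, 199 ± 6.93 in adult and 334 ± 45.6 in embryo libraries (mean ± SD, n = 3 each). In the other complexes the most abundant were Cox6c of complex IV, Uqcrq of complex III, Ndufb4 of complex I and Sdha of complex II. Complex V also had the highest median member, at 55.3 FPKM in transplant, 87.02 in teratoma, 45.81 in adult and 131.8 in embryo, while the median member of complex I was at 24.23 FPKM in transplant, 35.67 in teratoma, 11.2 in adult and 43.82 in embryo. The ranking of the members was much alike in all groups, with Spearman's rho between group means from 0.868 to 0.956 over the 79 members, which share their transcript lengths. The median coefficient of variation within a group lay between 18.9% and 22.6%.

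The FPKM of most subunit genes was lower in adult than in embryo progenitors. In adult against embryo 69 of the 79 tested members were called lower and 2 higher at an adjusted p under 0.05 (limma on log2(FPKM + 1), Benjamini-Hochberg over 12699 genes), while 36.9% of all tested genes were called lower and 15.8% higher. The median change of the members was -1.56 on this log2 scale, which understates the change of genes with low FPKM, against -0.42 for all tested genes. All 14 members of complex V and all 4 of complex II were called lower, with 33 of 37 in complex I, 6 of 8 in complex III and 12 of 16 in complex IV. The libraries of the 2 groups did not overlap for 70 of the 79 members (88.6%), and for 58.5% of all tested genes. Scaling by median ratios brought the median of all genes to -0.04 and that of the members to -1.07, with 58 members lower and 2 higher, while the calls over all genes went to 3284 higher and 3301 lower, against 2007 and 4692 unscaled.

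In complex I, the core subunit genes Ndufs7, Ndufs3, Ndufs8, Ndufv1, Ndufv2 and Ndufs1 all fell, Ndufs7 most among them. Ndufs7, which holds the last iron-sulfur cluster before ubiquinone, was at 6.85, 6.11 and 5.90 FPKM in adult libraries, against 80.7, 46.2 and 71.5 FPKM in embryo libraries. The lowest embryo library was far above the highest adult one, and the fall was among the steepest of all members (log2 change -3.17, SE 0.25, adjusted p = 9.9e-07). Ndufs3, its neighbour in the ubiquinone-binding module, was at 4.82, 7.91 and 4.75 FPKM in adult and 37.2, 51.1 and 37 FPKM in embryo libraries, again without overlap (log2 change -2.66, SE 0.28, adjusted p = 8.86e-06). Ndufs8, an iron-sulfur subunit of the same module, fell by 1.62 on the log2 scale (adjusted p = 0.000148). In the module that binds NADH, the flavoprotein gene Ndufv1 fell by 1.40, Ndufv2 by 1.97 and Ndufs1, the largest subunit, by 1.52. The accessory subunit Ndufc2 of the membrane arm changed most of all members, with 3.62, 9.04 and 1.42 FPKM in adult libraries and 50.6, 68.4 and 60.1 FPKM in embryo libraries (log2 change -3.64, SE 0.45, adjusted p = 3.39e-05).

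In complexes II and III all core subunit genes covered by the symbol rule were lower in adult cells. Sdha, the flavoprotein that oxidises succinate, was at 16.6, 16.1 and 14.6 FPKM in adult and 49.5, 68 and 54.4 FPKM in embryo libraries (log2 change -1.79, SE 0.18, adjusted p = 7.79e-06). The membrane anchor genes Sdhc and Sdhd fell by 2.13 and 1.23, and the iron-sulfur subunit gene Sdhb by 1.59. Of complex III, Uqcrc1 and Uqcrc2, the core proteins on the matrix side, fell by 1.37 and 1.68, and Uqcrfs1, the Rieske iron-sulfur protein, by 1.23. The members of complex III without a call were Uqcrb and Uqcrh, named after their values were seen. Uqcrh, the hinge protein of the cytochrome c docking site, was at 43.6, 67.6 and 71.9 FPKM in adult and 76.5, 54.2 and 101 FPKM in embryo libraries, which overlap (log2 change -0.32, SE 0.23, adjusted p = 0.261).

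Complex IV showed the smallest median change of the complexes, -0.90. Its tested members include Cox6a2, at 0 in all adult and embryo libraries, and Cox7a1 and Cox8b, at 0 in all embryo libraries. These low isoform genes draw the median towards 0, and a median without them was not computed. Cox7b, a small accessory subunit, fell by 1.73, and Cox6c by 1.35, whereas Cox4i1, the ubiquitous regulatory subunit that binds ATP, was at 80.05, 113 and 88.8 FPKM in adult and 173, 147 and 150.5 FPKM in embryo libraries and fell by 0.74 (adjusted p = 0.00201). Cox6a1 was at 61.4, 78.04 and 47.3 FPKM in adult and 82.8, 91.9 and 103 FPKM in embryo libraries (log2 change -0.59, SE 0.22, adjusted p = 0.0361), and its call was lost without adult replicate 1 or 3 or embryo replicate 2 or 3 (log2 changes from -0.77 to -0.41 with each library left out, adjusted p up to 0.152). With median-ratio scaling Cox4i1, Cox6a1, Cox7a2, Cox7a2l, Cox8a and Atp5b were no longer called. In complex V, Atp5a1, the α subunit, fell by 1.43 and Atp5c1, the γ subunit of the central stalk, by 2.10. Atp5k and Atp5j2, small subunits at the membrane, fell by 2.14 and 2.21, and the c subunit genes Atp5g1, Atp5g2 and Atp5g3, which encode the same mature protein, by 1.40, 1.99 and 1.30.

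**Figure D2:**
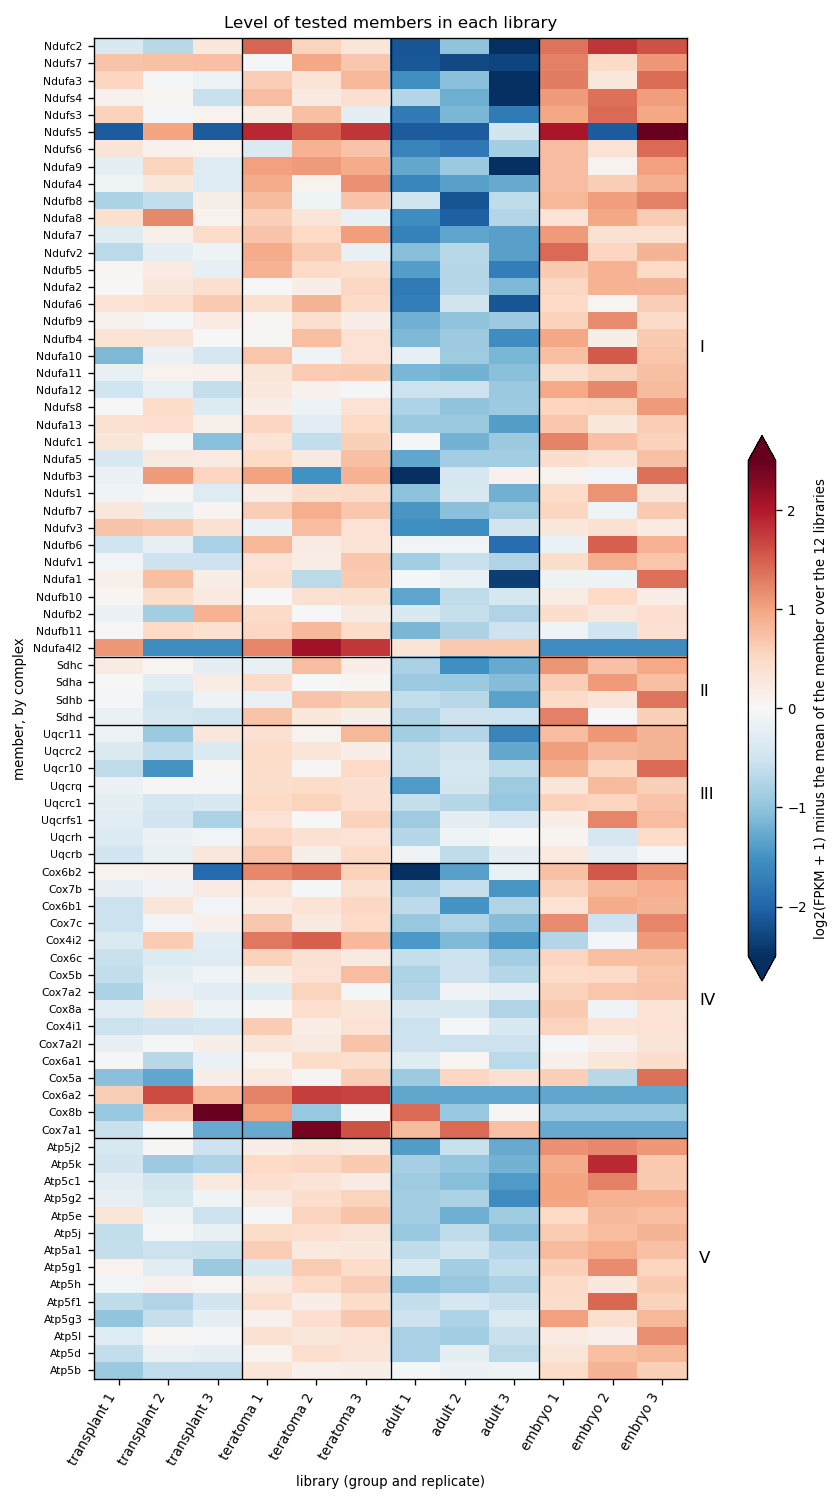
Level of the tested members shown (rows, by complex I to V and within a complex from the largest fall in adult against embryo down) in each library (columns), as log2(FPKM + 1) minus the member's mean over the 12 libraries. The adult columns are blue for almost all members and the embryo columns red; Ndufa4l2, Cox6a2, Cox8b and Cox7a1 stand apart from the members around them.

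After transplantation the members were above their adult levels, mainly in complex I. In transplant against adult 42 members were called higher and 1 lower, against 27.3% and 16.9% of all tested genes, with a median change of 0.77 for the members and 0.23 for all genes. Complex I gave 25 of the 42 higher calls out of 37 members (median 1.20), while complexes II to V gave 2 of 4, 3 of 8, 5 of 16 and 7 of 14, with medians of 0.80, 0.26, 0.47 and 0.43. With median-ratio scaling 33 members were higher and 2 lower, the medians were 1.00 in complex I and 0.05, 0.26 and 0.21 in complexes III, IV and V, and all genes stood at 0.09. The calls over all genes were then 3041 higher and 2833 lower, against 3462 and 2150 unscaled. Leaving out transplant replicate 1 gave 2 members lower.

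Ndufs7 had the largest rise, with 54.7, 55.5 and 55.9 FPKM in transplant libraries, against 6.85, 6.11 and 5.90 FPKM in adult libraries (log2 change 2.95, SE 0.25, adjusted p = 6.79e-06). The transplant libraries of Ndufs7 lay within the range of the embryo libraries. Ndufa8, an accessory subunit of the intermembrane side, was at 18.8, 33.4 and 14.8 FPKM in transplant and 4.08, 2.62 and 8.02 FPKM in adult libraries (log2 change 2.01, SE 0.36, adjusted p = 0.000912). Ndufs3 rose by 1.76 (adjusted p = 0.000381), while Ndufv1, which takes the electrons from NADH, showed a change of 0.35 that did not pass (adjusted p = 0.166). Sdhc and Sdha rose by 1.21 and 0.95, and Uqcrq, a small complex III subunit, was at 120.3, 131 and 128 FPKM in transplant and 49.1, 96.7 and 71.6 FPKM in adult libraries (log2 change 0.85, SE 0.21, adjusted p = 0.00648). In complex IV, Cox7b rose by 0.93, and in complex V, Atp5c1 and Atp5h, subunits of the central and the outer stalk, rose by 0.98 and 0.94. Cox4i1 and Atp5a1 had no call, with changes of -0.16 (SE 0.16) and 0.05 (SE 0.14).

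The share of complex I in the summed FPKM of all members was highest in transplant and lowest in adult libraries. It was 33.3, 32.8 and 31.5% in transplant libraries, 27.7, 27.6 and 28.1% in teratoma libraries, 21.3, 21.4 and 19.9% in adult libraries and 28.2, 25.9 and 27.9% in embryo libraries. The transplant libraries were above, and the adult libraries below, every library of the other groups. The share of complex IV was highest in adult libraries, at 28.3, 29.4 and 27.7%, against 22.6, 25.3 and 24.9% in transplant and 24.4, 20.97 and 24.4% in embryo libraries. An exact 2-sided permutation test of 3 libraries against 3 cannot go below p = 0.1, and it gave 0.1 for the complex I share in every pair of groups except teratoma against embryo, where p = 0.9. These shares do not depend on a scaling factor of the library.

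**Figure D3:**
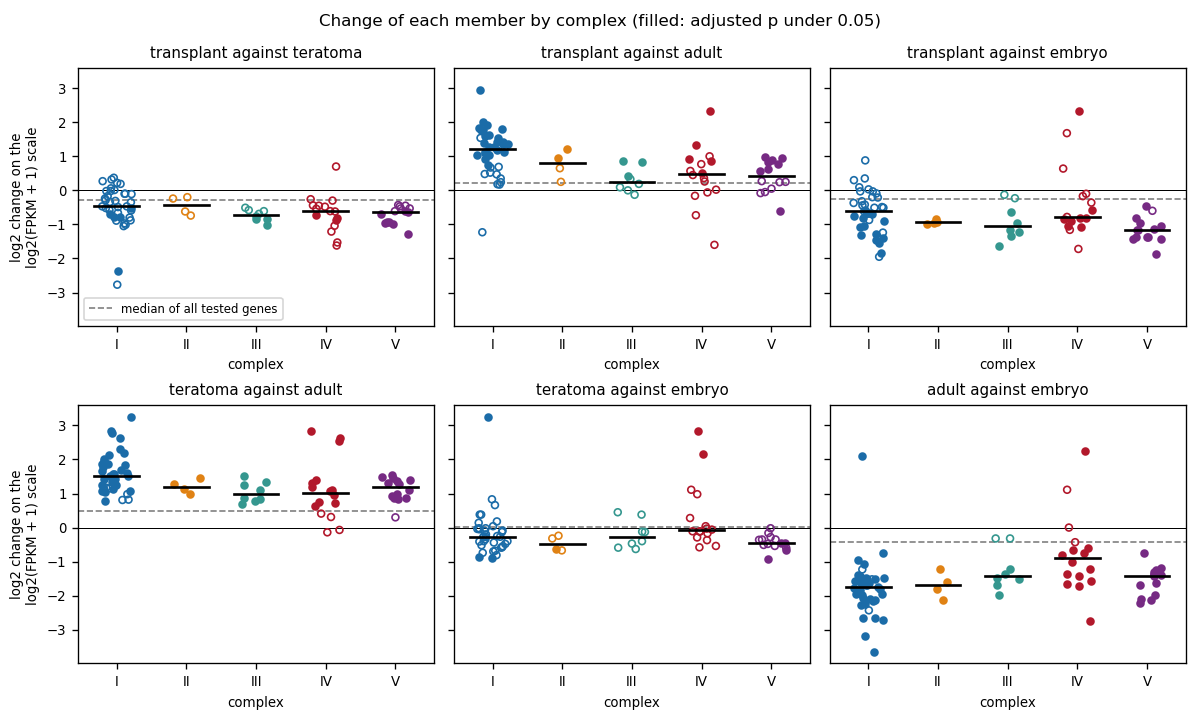
log2 change of each tested member (y axis, log2(FPKM + 1) scale) by complex (x axis) in the 6 comparisons of groups; filled points passed an adjusted p of 0.05, thick bars are the medians of each complex, and the dashed line is the median of all tested genes. In transplant against adult the complex I points centre on 1.20 and those of complexes III to V on 0.26 to 0.47, and in adult against embryo nearly all points lie below the dashed line.

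Few members were called different between teratoma and embryo progenitors. In teratoma against embryo 7 members were called lower and 3 higher, against 10.6% and 15.5% of all tested genes, and the median was -0.28 for the members and 0.01 for all genes. The members' share of lower calls was near that of all genes. The lower calls were Ndufs3 and Ndufa12 in complex I, Sdha in complex II, and Atp5a1, Atp5b, Atp5c1 and Atp5j2 in complex V. Atp5j2 was at 67.4, 73.4 and 70.5 FPKM in teratoma and 132, 138 and 128 FPKM in embryo libraries (log2 change -0.91, SE 0.21, adjusted p = 0.00823), and Ndufa12, an accessory subunit where the NADH and ubiquinone modules meet, was at 51.1, 45.5 and 41.01 FPKM in teratoma and 82.1, 98.3 and 74.03 FPKM in embryo libraries (log2 change -0.87, SE 0.17, adjusted p = 0.00331). These calls held without each library in turn. Atp5a1 was at 232, 178 and 182 FPKM in teratoma and 262, 286 and 251 FPKM in embryo libraries (log2 change -0.44), and lost its call without teratoma replicate 2 or 3 or embryo replicate 1 or 2 (adjusted p up to 0.142).

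The remaining lower calls of teratoma against embryo were close to the threshold. Atp5b (log2 change -0.44) lost its call without teratoma replicate 1, 2 or 3 or embryo replicate 2 or 3, Atp5c1 (-0.65) without teratoma replicate 1, 2 or 3 or embryo replicate 1 or 2, Ndufs3 (-0.88) without teratoma replicate 1 or 3 or embryo replicate 1, 2 or 3, and Sdha (-0.64) without teratoma replicate 2 or 3 or embryo replicate 2, with adjusted p up to 0.135, 0.14, 0.135 and 0.0942. With each library left out, the log2 change stayed between -0.53 and -0.34 for Atp5b and between -0.81 and -0.51 for Atp5c1. The count of lower members was 4 without teratoma replicate 1, 2 without teratoma replicate 3, 4 without embryo replicate 1 and 3 without embryo replicate 2. It was 12 with the trend on transcript length removed and 11 with quantile normalization. The 3 higher members, Ndufa4l2, Cox6a2 and Cox7a1, are isoform genes.

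The transplant libraries stood below the teratoma libraries in the unscaled sum of every complex, but the share of members called lower was little above that of all genes. In transplant against teratoma 20 members were called lower and none higher, against 18.5% and 4.18% of all tested genes, and the median was -0.58 for the members and -0.28 for all genes. Complex V gave 8 of its 14 members, complex III 4 of 8, complex IV 3 of 16 and complex I 5 of 37. With median-ratio scaling the count was 7, the median of the members -0.27 and that of all genes -0.03, and the calls over all genes were 922 higher and 1208 lower, against 531 and 2343 unscaled. With this scaling the sums overlapped in complexes I to III, with 1130 to 1195 FPKM in transplant and 1086 to 1342 in teratoma libraries for complex I, and not in complexes IV and V. Unscaled, the count was 10 without transplant replicate 1 and 12 without teratoma replicate 3.

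The α and β subunits of the ATP synthase were among the firmest of these calls. Atp5a1 was at 99.4, 104 and 102 FPKM in transplant and 232, 178 and 182 FPKM in teratoma libraries (log2 change -0.94, SE 0.14, adjusted p = 0.000751), and Atp5b at 112, 139.5 and 139 FPKM in transplant and 263, 235 and 238 FPKM in teratoma libraries (log2 change -0.92, SE 0.15, adjusted p = 0.00113). Both stayed lower with median-ratio scaling, at -0.62 and -0.6 (adjusted p = 0.00801 and 0.0137). Atp5k, the e subunit, which links ATP synthase dimers, was at 89.8, 66.7 and 73.1 FPKM in transplant and 178, 179 and 199 FPKM in teratoma libraries (log2 change -1.28, SE 0.26, adjusted p = 0.00446). In complex III, Uqcrc1 fell by 0.84, and in complex IV, Cox4i1 and Cox6c by 0.88 and 0.80. The complex I calls were Ndufa4l2, Ndufv1, Ndufa4, Ndufa12 and Ndufb7, the last named after its values were seen. Ndufv1 was at 19.2, 13.7 and 13.7 FPKM in transplant and 26.1, 23.03 and 32.6 FPKM in teratoma libraries and lost its call without transplant replicate 2 or 3 or teratoma replicate 3 (log2 changes from -0.93 to -0.64 with each library left out, adjusted p up to 0.0556). The calls of Ndufa4 (-0.78) and Ndufa12 (-0.53) were lost without transplant replicate 1 or 3 or teratoma replicate 1 or 3 and without transplant replicate 1 or 3 or teratoma replicate 1, 2 or 3, with adjusted p up to 0.149 and 0.154. The core subunits Ndufs7, Ndufs3 and Ndufs8 had changes of 0.19, -0.02 and -0.10, with standard errors of 0.25, 0.28 and 0.24 and no call.

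In the other two comparisons the stem-cell-derived groups were set against the opposite native stage. In teratoma against adult 68 members were higher and none lower, against 36.4% and 8.94% of all tested genes, with a median of 1.27 for the members and 0.50 for all genes. Sdhc and Uqcr11, a small subunit of complex III, rose by 1.45 and 1.52, and Atp5k by 1.55. With median-ratio scaling 48 were higher and none lower, the median was 0.76, that of all genes 0.12, and the calls over all genes were 2926 higher and 2585 lower, against 4628 and 1135 unscaled. In transplant against embryo 45 members were lower and 1, Cox6a2, higher, against 27.6% and 14.9% of all tested genes, with medians of -0.81 and -0.24. Complex V gave 13 of 14, complex I 15 of 37. With median-ratio scaling 24 were lower and 2 higher, the median was -0.49, that of all genes 0.00, and the calls over all genes were 2547 higher and 2422 lower, against 1889 and 3505 unscaled. Leaving out transplant replicate 1 gave 2 members higher. Uqcr10 of complex III was at 13.2, 6.96 and 21.6 FPKM in transplant and 39.8, 31.2 and 58.5 FPKM in embryo libraries (log2 change -1.64, SE 0.33, adjusted p = 0.00171). Each of the 6 comparisons shares libraries with others, so their counts are given side by side and not compared.

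Adult against embryo and transplant against teratoma share no library, and their changes were set against each other directly. In the difference of these differences 36 members were called lower and 2 higher, against 21.7% and 17.2% of all tested genes, with a median of -0.98 for the members and -0.20 for all genes. The adult minus embryo change was thus more negative than the transplant minus teratoma change for these 36 members, 23 of them in complex I, 2 in complex II, 3 in complex III, 2 in complex IV and 6 in complex V. Ndufs7 had the largest such difference, at -3.35 (SE 0.35, adjusted p = 3.6e-05), followed by Ndufs3 with -2.64 (adjusted p = 0.000371) and Ndufc2 with -2.59 (adjusted p = 0.00752). For Atp5b the difference was 0.18 (SE 0.21) and for Cox4i1 0.13 (SE 0.23), neither of which passed. By sign alone 68 of the 79 members were lower in adult than embryo and in transplant than teratoma (86.1%), against 45% of all tested genes, and 19 were called lower in both (24.1%), against 8.67% of all tested genes. Across members the 2 changes had a Pearson's r of -0.143 and a Spearman's rho of -0.077 (n = 79, members of the same libraries). With median-ratio scaling 30 members were lower and 2 higher in the difference of differences, with a median of -0.76. The share of all tested genes called in this difference after scaling is not given here, so these counts are not set against it.

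**Figure D4:**
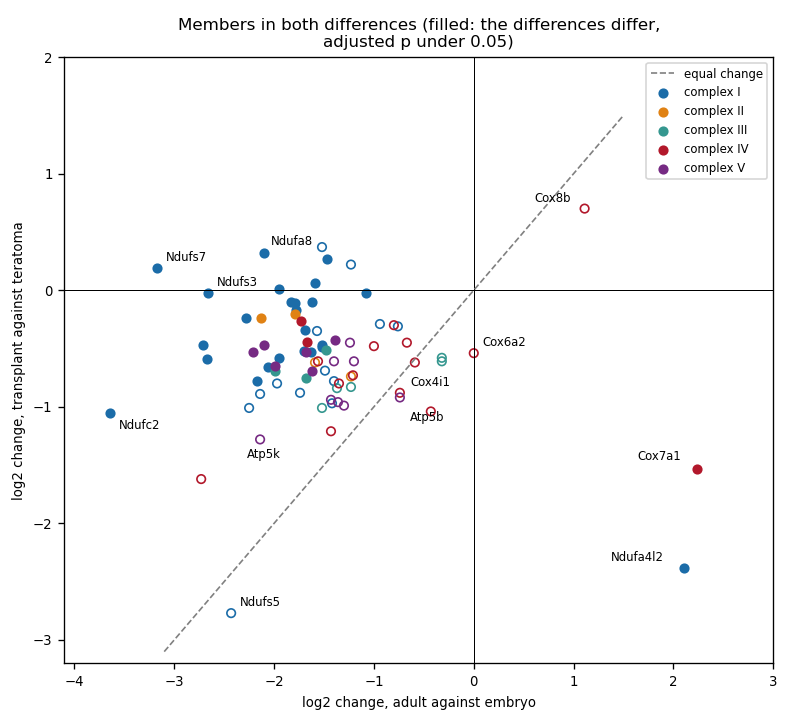
log2 change of each tested member in adult against embryo (x axis) and in transplant against teratoma (y axis); filled points differed between the differences at an adjusted p under 0.05 and the dashed line marks equal change. Most members lie left of 0 and above the dashed line, led by Ndufs7 at -3.17 and 0.19; Ndufa4l2 and Cox7a1 lie to the right of 0 and below it.

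Ndufa4l2 and some muscle isoform genes of complex IV did not follow the order of the groups seen for most members. Ndufa4l2, known as a hypoxia-induced relative of Ndufa4, was at 5.28, 0 and 0 FPKM in transplant libraries, 5.85, 11.70 and 9.09 in teratoma libraries and 2.77, 3.64 and 3.62 in adult libraries, and listed at 0 in all embryo libraries. Teratoma libraries were highest and 1 transplant library carried the whole transplant signal. It was called higher in adult (adjusted p = 0.00761) and in teratoma (adjusted p = 0.00142) against embryo and lower in transplant against teratoma (log2 change -2.38, adjusted p = 0.0115). No embryo library counted towards the filter of 1 FPKM in 3 libraries for Ndufa4l2, whose 0 values there have no spread. Its partner Ndufa4 went the other way between adult and embryo, with 7.23, 8.94 and 9.56 FPKM in adult and 42.5, 37.6 and 45.7 FPKM in embryo libraries (log2 change -2.17, SE 0.25, adjusted p = 2.08e-05).

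Values of other genes that moved beside Ndufa4l2 are given here, and their part in its pattern was not tested. Of 12 hypoxia targets, 5 were called higher (41.7%) and none lower in teratoma against embryo, against 15.5% and 10.6% of all tested genes. In adult against embryo 2 were higher (16.7%) and 3 lower (25%), near and below the 15.8% and 36.9% of all tested genes. None was higher and 6 were lower (50%) in transplant against teratoma, against 4.18% and 18.5% of all tested genes. The summed FPKM of the 12 targets was 167 to 185 in transplant, 242 to 300.4 in teratoma, 435 to 484 in adult and 156 to 162 in embryo libraries. Of 8 markers of mural cells, a list added after the data were seen because vessel wall cells are known to hold Ndufa4l2, the sum was 228 to 264 FPKM in transplant, 362 to 431 in teratoma, 140.3 to 168 in adult and 178 to 265 in embryo libraries, and none was at 0 throughout a group. Of these 8, 6 to 7 reached 1 FPKM per transplant library, 8 per teratoma library, 7 to 8 per adult library and 7 to 8 per embryo library. Among them 6 were called lower and none higher in transplant against teratoma, against 18.5% and 4.18% of all tested genes. In adult against embryo 3 were higher and 5 lower, against 15.8% and 36.9% of all tested genes. In teratoma against embryo 4 were higher and 1 lower, against 15.5% and 10.6% of all tested genes.

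The muscle isoform genes Cox6a2 and Cox7a1 of complex IV were low and differed between some groups. Cox6a2, the heart and skeletal muscle partner of Cox6a1, was at 2.73, 6.59 and 3.36 FPKM in transplant libraries and 4.80, 7.16 and 6.94 in teratoma libraries and was listed at 0 in all adult and embryo libraries. It was called higher in transplant against embryo and adult (adjusted p = 4.45e-05 and 5.99e-05) and in teratoma against embryo and adult (adjusted p = 2.51e-05 and 1.53e-05). Cox6a2 passed the filter of 1 FPKM in 3 libraries only through the transplant and teratoma libraries, where it is called higher. Its 0 values have no spread, so these p-values can overstate the precision. Against Cox6a1 its FPKM ratio was 0.0368, 0.141 and 0.0497 in transplant and 0.0592, 0.0683 and 0.0685 in teratoma libraries. Cox7a1, the striated muscle partner of Cox7a2, was at 0.632, 1.31 and 0 FPKM in transplant, 0, 11.6 and 6.26 in teratoma and 3.13, 5.37 and 3.01 in adult libraries and listed at 0 in all embryo libraries. Teratoma replicate 1 was at 0 although its group mates were not. Cox7a1 was called higher in adult against embryo (adjusted p = 0.0186), a call lost without adult replicate 2, where 1 higher member was left and its adjusted p was 0.0618. Its call in teratoma against embryo (adjusted p = 0.0407) was lost without teratoma replicate 2 or 3 or embryo replicate 1, 2 or 3 (adjusted p up to 0.169). The embryo 0 values of Cox7a1 likewise added neither to the filter nor to the spread.

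Cox8b, the muscle partner of Cox8a, was at 0, 2.10 and 9.70 FPKM in transplant, 2.94, 0 and 0.944 in teratoma and 4.16, 0 and 0.966 in adult libraries and at 0 in embryo libraries, with no call in any comparison. Cox4i2, the lung and hypoxia isoform of subunit 4, was at 1.11, 3.19 and 1.25 FPKM in transplant, 5.75, 6.63 and 3.77 in teratoma, 0, 0.257 and 0 in adult and 0.637, 1.66 and 4.66 in embryo libraries. It was lower in adult against embryo (log2 change -1.43, adjusted p = 0.0128, lost without embryo replicate 3 at 0.0515) and higher in teratoma against adult (2.54, adjusted p = 0.000531). Cox6b2, known as a testis isoform, was at 9.12, 9.31 and 1.46 FPKM in transplant, 20.8, 23.03 and 13.1 in teratoma, 0, 2.74 and 7.52 in adult and 14.9, 27.04 and 19.8 in embryo libraries and fell with the ubiquitous Cox6b1 in adult against embryo (-2.73 and -1.67). Of 14 muscle fibre genes, markers of differentiated fibres, the sum was 85.5 to 100.4 FPKM in transplant, 66.7 to 152 in teratoma, 12.6 to 25.03 in adult and 6.28 to 7.79 in embryo libraries, and those at 1 FPKM or more numbered 9 to 10 per transplant, 7 to 8 per teratoma, 3 to 5 per adult and 2 to 3 per embryo library. Ckmt2 was at 0 in all transplant libraries, Myoz1 in all adult libraries, and Ckm, Mb and Pvalb in all embryo libraries. Acta1, skeletal muscle actin, was at 40.5, 45.7 and 46.9 FPKM in transplant and 23.8, 61.5 and 35.5 in teratoma libraries. The part of fibre RNA in the isoform values was not tested.

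**Figure D5:**
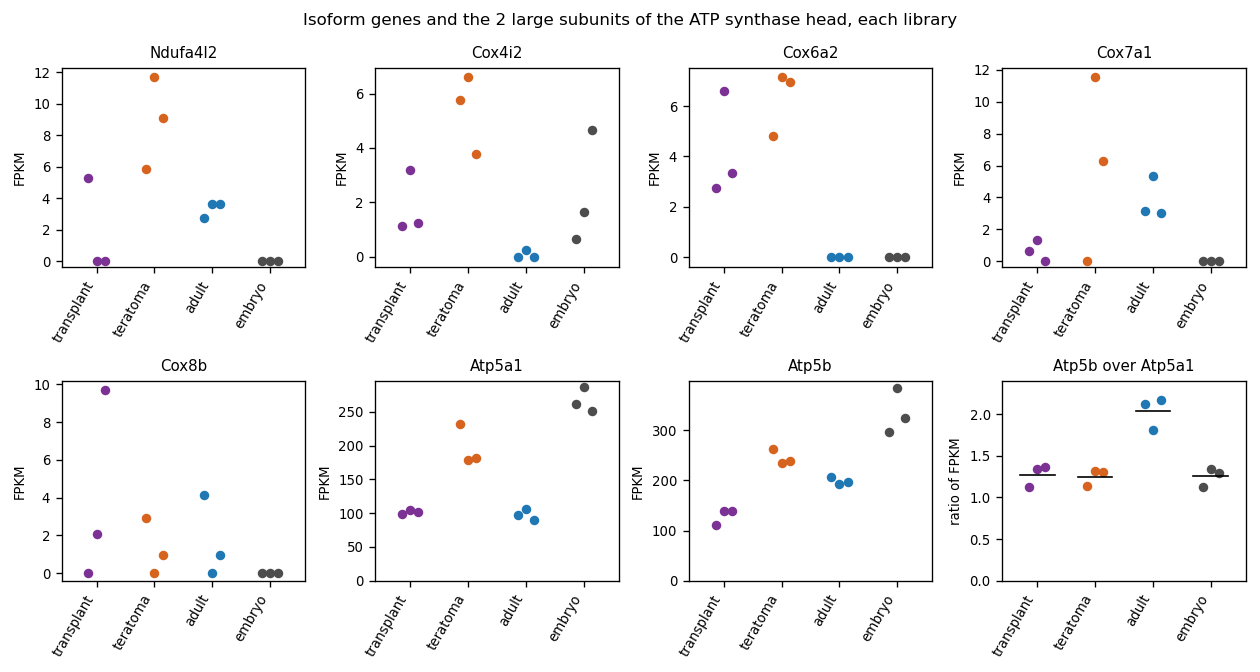
FPKM of each library (y axes) by group (x axes) for 5 isoform genes and for Atp5a1 and Atp5b, and the ratio of Atp5b to Atp5a1 with the group mean as a bar. Cox6a2 is above 0 in the 6 transplant and teratoma libraries and at 0 in the 6 adult and embryo libraries, and the adult libraries, at 2.12, 1.81 and 2.17, are the highest in the ratio panel.

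Atp5b and Atp5a1 encode the 2 large subunits of the ATP synthase head, which form a ring of equal numbers, and their FPKM ratio was higher in adult than in the other libraries. This ratio was chosen after its values were seen. Atp5b over Atp5a1 was 1.12, 1.34 and 1.36 in transplant, 1.13, 1.32 and 1.30 in teratoma, 2.12, 1.81 and 2.17 in adult and 1.13, 1.34 and 1.29 in embryo libraries. The adult libraries were above all others, and the other groups overlapped. Adult against embryo gave p = 0.1 in the exact 2-sided permutation test, the smallest it allows. Atp5b was also the only member lower in transplant against adult, with 112, 139.5 and 139 FPKM in transplant and 207, 193 and 197 FPKM in adult libraries (log2 change -0.62, SE 0.15, adjusted p = 0.00476). That call was lost with quantile normalization, at -0.34 (adjusted p = 0.135).

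Ndufs5, an accessory subunit of complex I, could not be followed well. It was listed at 0, 7.45 and 0 FPKM in transplant, 14.7, 10.7 and 13.7 in teratoma, 0, 0 and 2.09 in adult and 16.4, 0 and 26.9 in embryo libraries. Its call in teratoma against adult (log2 change 3.26, SE 1.11, adjusted p = 0.0315) was lost without teratoma replicate 1, 2 or 3 or adult replicate 1 or 2 (adjusted p up to 0.0884). Ndufb3, Ndufa1 and Cox5a, named after their values were seen, had no call in adult against embryo either, with changes of -1.52, -1.23 and -0.43 and standard errors of 0.8, 0.59 and 0.53.

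Other lists of mitochondrial and metabolic genes were counted in the same comparisons, where 36.9% of all tested genes were lower and 15.8% higher in adult against embryo, 16.9% lower and 27.3% higher in transplant against adult, and 18.5% lower and 4.18% higher in transplant against teratoma. The 7 subunit and partner genes outside the symbol rule had 5 lower and 0 higher calls in adult against embryo (median -2.14), led by Atpif1, the inhibitor of the reversed ATP synthase, which was at 12.9, 16.6 and 6.09 FPKM in adult and 114, 94.4 and 114 FPKM in embryo libraries. Cytochrome c, Cycs, was at 9.67, 12.01 and 12.8 FPKM in transplant, 33.5, 25.4 and 23.1 in teratoma, 38.2, 30.2 and 24.96 in adult and 22.1, 41.7 and 27.7 in embryo libraries, and was lower in transplant against adult (log2 change -1.35). Of 43 tested assembly factors 26 were lower and 1 higher in adult against embryo (median -1.14), 18 higher and 2 lower in transplant against adult, and 0 lower and 1 higher in transplant against teratoma (median -0.07). Of 76 mitochondrial ribosomal proteins 53 were lower and 1 higher in adult against embryo (median -1.38), and 24 higher and 3 lower in transplant against adult. Of 24 genes of the TCA cycle and pyruvate entry 16 were lower and 1 higher in adult against embryo, and 5 higher and 2 lower in transplant against adult, where the higher calls made 20.8%, below the share of all genes. Of 22 genes of glycolysis and lactate 13 were lower and 5 higher in adult against embryo, 16 lower and none higher in transplant against teratoma (median -0.98), and 3 lower and 5 higher in transplant against adult. Of 13 genes of fatty acid oxidation 6 were lower and 1 higher in adult against embryo, and 4 higher and none lower in transplant against adult. Of 21 genes of mitochondrial import and carriers 13 were lower and 3 higher in adult against embryo, and 5 higher and 7 lower in transplant against adult. Of 88 cytosolic ribosomal proteins 26 were lower (29.5%, below the share of all genes) and none higher in adult against embryo (median -0.30), and 26 lower and 2 higher in transplant against adult.

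Known regulators of mitochondrial gene expression had calls in both directions. Of 17 tested regulators 3 were higher and 3 lower in adult against embryo. In transplant against adult 2 were higher and 8 lower (47.1%), against 27.3% and 16.9% of all tested genes, and their median of -0.44 was of the opposite sign to that of the members, 0.77. Nrf1, nuclear respiratory factor 1, changed by -0.87 in adult against embryo (adjusted p = 0.0039), Lrpprc, which stabilises mitochondrial mRNA, by -1.28 and Ssbp1, the mitochondrial single-stranded DNA binding protein, by -3.12. Pprc1, a coactivator of the PGC-1 family, changed by 1.58 and the methyltransferase-like transcription factor Tfb2m by 1.93. Ppargc1a, PGC-1α, was lower in transplant against teratoma (log2 change -1.51, adjusted p = 0.00139). Tfam and Gabpa changed by -0.01 and -0.21 in adult against embryo, with no call.

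Cell cycle genes and markers of other cells also differed between the groups, and their part in the members' changes was not tested. The summed FPKM of 12 cell cycle genes was 42.2 to 64.5 in transplant, 228 to 312 in teratoma, 111 to 118 in adult and 627 to 786 in embryo libraries. In transplant against adult 3 of these 12 genes were called higher and 1, Pcna, lower, with a median change of 0.38. Of all tested genes 27.3% were higher and 16.9% lower there. Erythroid genes summed to 0.486 to 8.06 FPKM in transplant, 42.01 to 180.3 in teratoma, 4.51 to 57.6 in adult and 517 to 1931 in embryo libraries. Of these 8 genes, 0 to 1 reached 1 FPKM per transplant, 4 to 6 per teratoma, 2 to 5 per adult and 5 to 7 per embryo library. Epithelial and endodermal genes summed to 160.3 to 407 FPKM in teratoma libraries and at most 14.4 FPKM elsewhere, with Afp and Ttr at 0 in every library of the other groups. Fibroblast genes summed to 3797 to 5958 FPKM in transplant, 2017 to 3311 in teratoma, 907 to 1369 in adult and 1801 to 2613 in embryo libraries, leukocyte genes to 15.9 to 35.4 in transplant, 45.2 to 107 in teratoma, 7.18 to 16.3 in adult and 2.67 to 12.29 in embryo libraries, and endothelial genes to 6.47 to 9.19, 32.1 to 39.8, 12.53 to 17.7 and 16.3 to 27.3 FPKM in transplant, teratoma, adult and embryo libraries. Ptprc, the CD45 gene, was at 0 in all adult libraries.

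Transcript length bears on the comparison with all genes, since the members are short. The longest annotated transcript of the median member had 861 bases, against 3150 bases for the median tested gene of known length. Among genes of up to 700 bases, the 27 members had a median of -1.49 in adult against embryo and 297 other genes a median of -0.14, and among genes of 700 to 1000 bases the 20 members stood at -1.54 and 378 others at -0.59. In transplant against teratoma the same classes gave -0.61 for members and -0.32 for other genes, and -0.53 and -0.35. Removing the trend on length left 65 members lower and 2 higher in adult against embryo, 33 higher and 3 lower in transplant against adult, and 14 lower in transplant against teratoma. The share of all tested genes called after this removal is not given here, so these counts are not set against it. Many genes of these complexes are known to have processed pseudogenes, and near-identical copies can take or give reads; this was not checked here, so values of single members carry that uncertainty.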

How the data were processed

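RNA was prepared with the Clontech SMARTer Stranded Total RNA-seq Pico kit, per the labels' protocols. Per the submitters' processing notes the tools were Cufflinks 2.2.1.0, TopHat, Partek and CASAVA 1.8.2 with the mouse build mm10; the use of strand in counting is not given in the sources used here. Values are FPKM per gene, deposited as 1 table of all libraries and normalised by length and mapped fragments. Values of the 240 symbols that stand on several lines were summed, giving 23284 symbols. Genes reaching 1 FPKM in 3 or more libraries, 12699 in all, were tested on log2(FPKM + 1) with limma 3.58.1 in R 4.3.3 (1 mean per group, all 12 libraries, trend in the prior variance). A gene was called at a Benjamini-Hochberg adjusted p under 0.05 over all tested genes, and the procedure was tested on simulated data. The table gives no read counts, so depth and counting error are unknown, no interval from counts can be given, and the precision rests on 3 libraries per group.

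Members singly named were core subunits and paralogue families, the members with the largest called change of each complex, the most and least abundant, those changed against the majority, and those with an isolated 0; others are said to be chosen after their values were seen. The members and gene lists were chosen with earlier results of these data known. Alternatives were another pseudocount, other filters, median-ratio scaling, quantile normalization, removal of the trend on length, library quality weights, fits of only 2 groups, a replicate block, isolated 0 values as missing, and each library left out. Older symbols were matched through RefSeq synonyms, and promoters came from RefSeq tables of GRCm38.p6. Lengths came from GENCODE transcripts, with a length for 91.1% of the tested genes. Some members are not reported here singly, or not with their sequence or position.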

Additional observations from a re-analysis of the deposited data

Results flagged for a closer look

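Differences of differences are given here as (adult minus embryo) minus (transplant minus teratoma) on the log2(FPKM + 1) scale, for members where limma called the 2 differences unequal (Benjamini-Hochberg over all tested genes). There were 36 members with a negative value and 2 with a positive one. In complex I, Ndufs7 stood at -3.35, Ndufs3 at -2.64, Ndufc2 at -2.59, Ndufa8 at -2.42, Ndufb4 at -1.61, Ndufs8 at -1.52, Ndufa4 at -1.39, Ndufa12 at -1.11 and Ndufs1 at -1.03. In complex II, Sdhc stood at -1.89 and Sdha at -1.59, and in complex III, Uqcr11 at -1.31, Uqcrq at -0.98 and Uqcrc2 at -0.92. In complex IV, Cox7b stood at -1.47 and Cox6b1 at -1.23, and in complex V, Atp5j2 at -1.68, Atp5c1 at -1.63, Atp5g2 at -1.34 and Atp5h at -0.96. Both positive values belong to genes listed at 0 in all embryo libraries, Ndufa4l2 at 4.49 and Cox7a1 at 3.77, and their size depends on the pseudocount. Of 12 cell cycle genes, 10 were also called lower in the difference of differences (83.3%), against 21.7% of all tested genes. In teratoma against embryo all 12 were called lower (median -1.41), with 7 of 79 members. In transplant against teratoma all 12 were called lower (median -2.72), with 20 of 79 members (median -0.58). The part of cell cycle genes in the members' values was not tested.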

How the results depend on the processing

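No library or setting reversed a call of a named member in the 6 comparisons of groups, but calls were lost. Without each library in turn, 40 of 43 calls held in adult, 4 of 10 in teratoma and 24 of 34 in transplant against embryo. In teratoma and transplant against adult 35 of 41 and 17 of 24 held, and in transplant against teratoma 8 of 15. Median-ratio scaling kept 37, 9, 20, 29, 18 and 7 of these calls in the same order. Counts and medians that moved are given by setting, the counts without the share of all tested genes called in that setting. Without a filter on low values the members' median minus that of all genes was -1.43 in adult against embryo, 0.74 in transplant against adult, 1.00 in teratoma against adult and -0.75 in transplant against embryo. With a mean of at least 5 FPKM no member was higher in adult, teratoma or transplant against embryo (0 each), nor in the difference of differences (0, median minus all genes -1.02). The members called higher there, Ndufa4l2, Cox6a2 and Cox7a1, had means of 3.495, 2.632 and 2.607 FPKM over the 12 libraries. This filter left them untested, so their absence was fixed in advance. With median-ratio scaling the members' median was -1.07 in adult against embryo, -0.27 in transplant against teratoma (7 lower), 0.57 in transplant against adult (2 lower), 0.76 in teratoma against adult, -0.49 in transplant against embryo (24 lower, 2 higher) and -0.76 in the difference of differences. With quantile normalization the members' median was -0.35 in teratoma against embryo (11 lower), -0.36 in transplant against teratoma (9 lower), 1.10 in teratoma against adult and -0.70 in transplant against embryo. Minus that of all genes it was -1.42 in adult against embryo, 0.82 in transplant against adult (2 lower), 1.15 in teratoma against adult and -1.04 in the difference of differences. With the length trend removed the members' median was -1.36 in adult against embryo, -0.42 in teratoma against embryo (12 lower, -0.44 minus all genes), -0.49 in transplant against teratoma and 0.96 in teratoma against adult (0.46 minus all genes), and 3 members were lower in transplant against adult. With only the groups compared in the fit, 4 members were lower in teratoma against embryo and 2 in transplant against adult. Library quality weights gave 5 higher in teratoma against embryo and 2 lower in transplant against adult, as did isolated 0 values taken as missing (2 lower). At a log2 change of at least 1, 0 members were lower in teratoma against embryo, 3 in transplant against teratoma and 24 in transplant against embryo, and 26 were higher and 0 lower in transplant against adult. Apart from the members removed by the filter at 5 FPKM, the cause of these shifts was not tested. With each library left out, the count of higher members in adult against embryo ran from 1 to 2, of lower members in teratoma against embryo from 2 to 7 (median -0.31 to -0.20), of lower members in transplant against teratoma from 10 to 16, of lower members in transplant against adult from 1 to 2, and of higher members in transplant against embryo from 1 to 2. With the replicate number as a replicate block, 68 members were lower in adult against embryo, 5 in teratoma against embryo, 16 in transplant against teratoma and 45 in transplant against embryo, and 41 and 66 were higher in transplant and in teratoma against adult. Correlations of deviations between same-numbered libraries ran from -0.095 to 0.096 over 18 pairs, none over 0.1. They show no pairing of the libraries by number, but a shared batch that touches only some genes was not tested.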
